A study of Homo sapiens with 16 samples.

Results

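Ragulator is a scaffold of 5 small proteins, LAMTOR1 to LAMTOR5, on the surface of the lysosome. It holds the Rag GTPases, encoded by RRAGA, RRAGB, RRAGC and RRAGD, to that membrane, and FLCN (folliculin) acts on the Rag GTPases. These 10 genes were chosen by name, as the rows of the deposited table that carry these symbols, and all 10 were found among 58051 identifiers. All 10 also passed the filter on low values and were among the 13765 genes tested.

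The libraries came from P493-6, a human B cell line immortalised by Epstein-Barr virus, in which a MYC transgene is turned down by tetracycline-class drugs and the viral EBNA2 protein is a fusion that oestrogen switches on. Total RNA of this 1 line was sequenced in bulk, in 4 groups of 4 libraries. The high MYC cells grew in normal medium, and the medium MYC cells were given 0.1 µg/mL doxycycline with 1 µM β-estradiol for 24 h beforehand. At each MYC level the next 24 h were spent either in 100 nM IMP1088, which blocks the enzymes NMT1 and NMT2 that attach myristate to proteins, or in the solvent DMSO, called control here. Because doxycycline and β-estradiol were given only at medium MYC, the effect of the MYC level and that of these agents cannot be told apart. The labels do not say that replicates came from separate cultures, so p-values measure only the spread between these libraries.

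As background, the kinase complex mTORC1 is active where it meets the small GTPase RHEB on the lysosome. Amino acids bring it there through the Rag GTPases, which work as a heterodimer of RagA or RagB with RagC or RagD. Ragulator anchors the heterodimer, and LAMTOR1 anchors Ragulator through fatty acids at its amino end, one of them a myristate that NMT enzymes attach to a glycine. FLCN, with FNIP1 or FNIP2, promotes GTP hydrolysis on RagC and RagD and so governs the transcription factors TFEB and TFE3, which bind CLEAR elements built around CACGTG, a motif that MYC with MAX also binds.

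At the start of a protein, N-myristoylation requires a glycine directly after the initiator methionine, and the coding sequences show which Ragulator subunit has one. The first 30 coding bases of the longest annotated coding sequence (GENCODE 29, GRCh38) are printed 5′ to 3′, with the second codon in capitals.
LAMTOR1: atgGGGtgctgctacagcagcgagaacgag
LAMTOR2: atgCTGcgccccaaggctttgacccaggtg
LAMTOR3: atgGCGgatgacctaaagcgattcttgtat
LAMTOR4: atgACTtctgcgctgacccaggggctggag
LAMTOR5: atgGAGccaggtgcaggtcacctcgacggt
The second codon of LAMTOR1 is GGG, which encodes glycine. LAMTOR1 was the 1 member of the 10 with a glycine codon at this place, in both of its 2 annotated coding starts. For comparison, BORCS5, the myristoylated subunit of the lysosome-positioning complex BORC, begins as follows.
BORCS5: atgGGCagtgagcagagctccgaggccgag
The measurements below are of mRNA, so they say nothing of whether these proteins carried myristate.

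Values are the authors' normalized counts, in which a library's reads are divided by a size factor, so each compares a gene with the typical gene of its library. Each library held 8755296 to 13858534 reads over the listed genes, and a member had 74 to 1038 reads in any library. Replicates correlated at r of 0.985 to 0.991 across genes. MYC mRNA, the check of the labels, lay at 29693 to 34376 in high and 904 to 1022 in medium MYC controls. With inhibitor it lay higher at both levels, at 46843 to 48049 and 1327.5 to 1444, with no overlap. All 8 B cell markers had a mean of at least 10 in every group, and their summed level in controls was 41854 to 44447 at high and 63755 to 67741.5 at medium MYC. The 6 T and NK cell markers, 2 or 3 of them with a mean of at least 10, summed in controls to 65.1 to 74.9 at high and 86.6 to 116 at medium MYC. The 5 monocyte markers, with MARCO at 0, summed in controls to 41.4 to 64.8 and 51.7 to 60.5. The 5 stromal and epithelial markers, with DCN at 0, summed to 64.8 to 94.6 in the 8 high and to 177 to 238 in the 8 medium MYC libraries. Markers within a sum did not all move together. In controls COL1A1 had a mean of 7.09 at high and 164 at medium MYC, while EPCAM went from 62.1 to 13.1. CD79A, CD79B and CD3G had lower means in medium MYC controls, against the sums of their lists, with groups that overlapped. The part of these levels in the MYC results was not tested. Total RNA per cell was not measured, and fewer cells of a type and less RNA per cell cannot be told apart in bulk libraries.

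Exon length here is the union of all annotated exons of a gene, and which transcripts were expressed was not tested. The order between genes depends on this length, which is 1589 bases for RRAGA, 2388 for LAMTOR5 and 9786 for FLCN. Undivided, LAMTOR5 (mean 497) stood above RRAGA (447) in high MYC controls, and RRAGB (90.5) stood below FLCN (259). With the levels divided by exon length, RRAGA stood highest and FLCN lowest in all 4 groups. In high MYC controls RRAGA had 281 ± 8.13 normalized counts per kb of exon (SD, n = 4), followed by LAMTOR5 at 208 ± 3.78, LAMTOR2 at 135 ± 9.11, LAMTOR4 at 122 ± 1.68 and LAMTOR1 at 111 ± 2.19. RRAGD followed at 95.5 ± 2.74 per kb, then LAMTOR3 at 59.7 ± 4.23, RRAGC at 48.8 ± 4.59, RRAGB at 33.2 ± 3.31 and FLCN at 26.4 ± 0.215. No neighbours in this order overlapped between their 4 libraries. With inhibitor at high MYC the order was the same, and only LAMTOR4 and LAMTOR1 overlapped. In medium MYC controls RRAGA stood at 512 ± 41.4 per kb, and LAMTOR1 at 164 ± 8.27 overlapped LAMTOR5 at 161 ± 2.999. There RRAGC (89.6 ± 6.74 per kb) stood above RRAGD (74.1 ± 2.52), the reverse of their order at high MYC. In that group LAMTOR2 and LAMTOR4 overlapped, as did RRAGC and LAMTOR3, and LAMTOR3 and RRAGD. With inhibitor at medium MYC the order was RRAGA, LAMTOR5, LAMTOR1, LAMTOR2, LAMTOR4, LAMTOR3, RRAGC, RRAGD, RRAGB and FLCN, and LAMTOR2 and LAMTOR4, LAMTOR4 and LAMTOR3, and RRAGD and RRAGB overlapped.

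**Figure D1:**
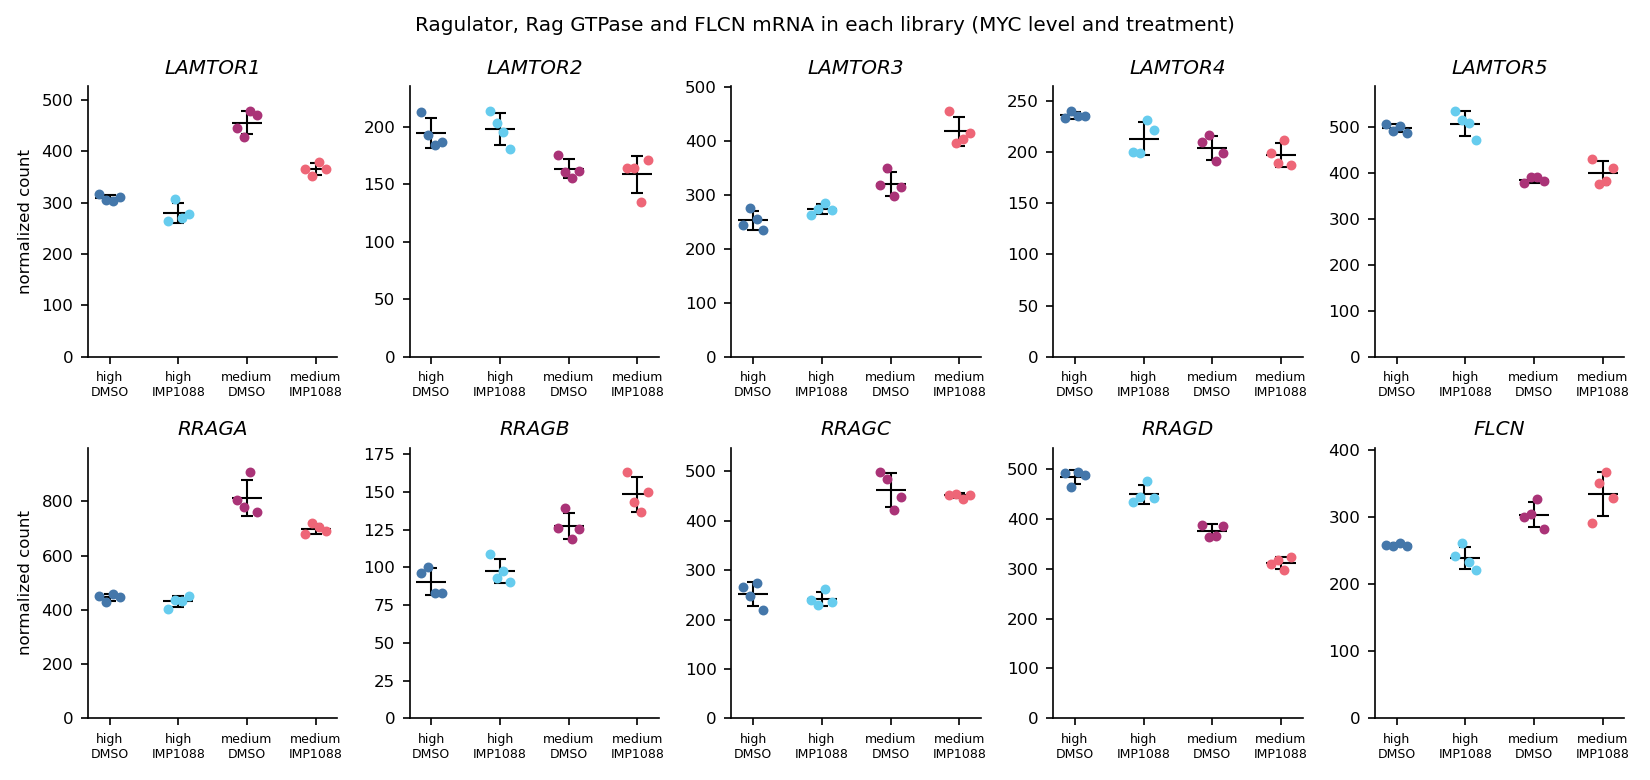
Normalized counts (vertical axes, per gene) of the 10 genes in each of the 16 libraries, grouped by MYC level and treatment, with points for libraries and bars for the mean and SD. RRAGC lies at 220.2 to 274 in the 8 high MYC libraries and at 422 to 499 in the 8 medium MYC libraries.

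The first comparison asked how the mRNAs of the lysosomal scaffold differ between MYC levels without inhibitor. All 10 genes differed, 6 higher and 4 lower at medium MYC. RRAGA and RRAGC were the most strongly raised, LAMTOR1 rose with them, and RRAGD and LAMTOR5 fell. The groups of 4 libraries did not overlap for any of the 10. Of all genes tested, 76.2% were called in this comparison by limma at an adjusted p under 0.05 (38.9% higher, 37.3% lower) and 69.2% had groups that did not overlap, so calls for all 10 genes stand against a high background. The members' median log2 difference was 0.28, beside 0.02 over all genes tested.

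LAMTOR1 (chromosome 11, 72085895 to 72103387, minus strand, GRCh38, as all gene positions here) is the anchor of Ragulator. Its normalized counts were 317, 305.5, 303.5 and 311 in the high MYC controls and 446, 429, 480 and 470.2 in the medium MYC controls. Every medium MYC library lay above every high MYC library. The log2 difference was 0.56 (SE 0.05, limma adjusted p = 5.63e-09).

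LAMTOR2 (chromosome 1, 156054752 to 156058510, plus strand) and LAMTOR3 (chromosome 4, 99878336 to 99894490, minus strand) form a roadblock-fold pair inside the scaffold and moved in opposite directions. LAMTOR2 had 213, 193, 184 and 187 normalized counts in high MYC controls and 175, 161, 156 and 162 in medium MYC controls, a log2 difference of -0.25 (SE 0.08, limma adjusted p = 0.0102). LAMTOR3 had 244, 276, 255 and 235 in high MYC controls and 317, 350.2, 297.5 and 313.5 in medium MYC controls, a log2 difference of 0.34 (SE 0.06, limma adjusted p = 6.53e-05). For both genes the nearest libraries of the groups were close, at 184 against 175 for LAMTOR2 and at 276 against 297.5 for LAMTOR3.

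LAMTOR4 (chromosome 7, 100148907 to 100155944, plus strand) and LAMTOR5 (chromosome 1, 110401249 to 110407942, minus strand) form the other roadblock pair and were both lower at medium MYC. LAMTOR4 had 233, 240.3, 235 and 235 normalized counts in high MYC controls and 209.7, 217, 191 and 199 in medium MYC controls, a log2 difference of -0.21 (SE 0.07, limma adjusted p = 0.00849). LAMTOR5 had 507, 492, 502 and 487 in high MYC controls and 378, 391, 392 and 382 in medium MYC controls, a log2 difference of -0.37 (SE 0.05, limma adjusted p = 1.16e-06). The LAMTOR5 groups stood well apart, with 392 the highest medium MYC library and 487 the lowest high MYC library. Exons on the opposite strand overlap 18.4% of the LAMTOR4 exon length (C7orf43) and 17.5% of that of LAMTOR5 (LAMTOR5-AS1). Whether the counting used strand is not given in the sources used here, so both genes' values are uncertain.

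RRAGA (chromosome 9, 19049395 to 19050983, plus strand, a single-exon gene) encodes RagA. Its normalized counts were 453, 428, 457 and 449 in high MYC controls and 805, 779, 908 and 761.5 in medium MYC controls. The lowest medium MYC library stood far above the highest high MYC library. The log2 difference was 0.86 (SE 0.05, limma adjusted p = 1.24e-12). RRAGB (chromosome X, 55717739 to 55758774, plus strand), its close paralog RagB, had 96.4, 99.95, 82.8 and 82.7 in high MYC controls and 126, 139.5, 119 and 126 in medium MYC controls, a log2 difference of 0.49 (SE 0.10, limma adjusted p = 8.08e-05). The RRAGB libraries did not overlap either, although they rest on the fewest reads of the 10 genes.

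RRAGC (chromosome 1, 38838198 to 38859823, minus strand) encodes RagC and RRAGD (chromosome 6, 89364636 to 89412270, minus strand) its paralog RagD, and they changed in opposite directions. RRAGC had 266, 248, 274 and 220.2 normalized counts in high MYC controls and 499, 484, 422 and 447 in medium MYC controls, a log2 difference of 0.88 (SE 0.07, limma adjusted p = 1.04e-10). RRAGD had 493, 464, 493 and 487 in high MYC controls and 388, 364, 366 and 386 in medium MYC controls, a log2 difference of -0.36 (SE 0.05, limma adjusted p = 5.42e-07). Per length, RRAGD was the higher of the pair in every high MYC control and RRAGC in every medium MYC control. Exons of AL139260.2, on the same strand, overlap 22.9% of the RRAGC exon length, and AL139260.2 was listed at 0 in all libraries. Which gene the reads in that stretch came from was not tested.

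FLCN (chromosome 17, 17212212 to 17237188, minus strand) had 258, 257, 262 and 257 normalized counts in high MYC controls and 300.4, 305, 326 and 281.5 in medium MYC controls. The medium MYC libraries all lay above the high MYC libraries, the nearest by a narrow margin. The log2 difference was 0.23 (SE 0.07, limma adjusted p = 0.00625), the smallest gain of the 6. With a correction for GC content, chosen after seeing the data, it was 0.05 (limma adjusted p = 0.526). A second annotated gene on the same strand, AC055811.2, overlaps FLCN exons and had 0 to 9.60 normalized counts.

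**Figure D2:**
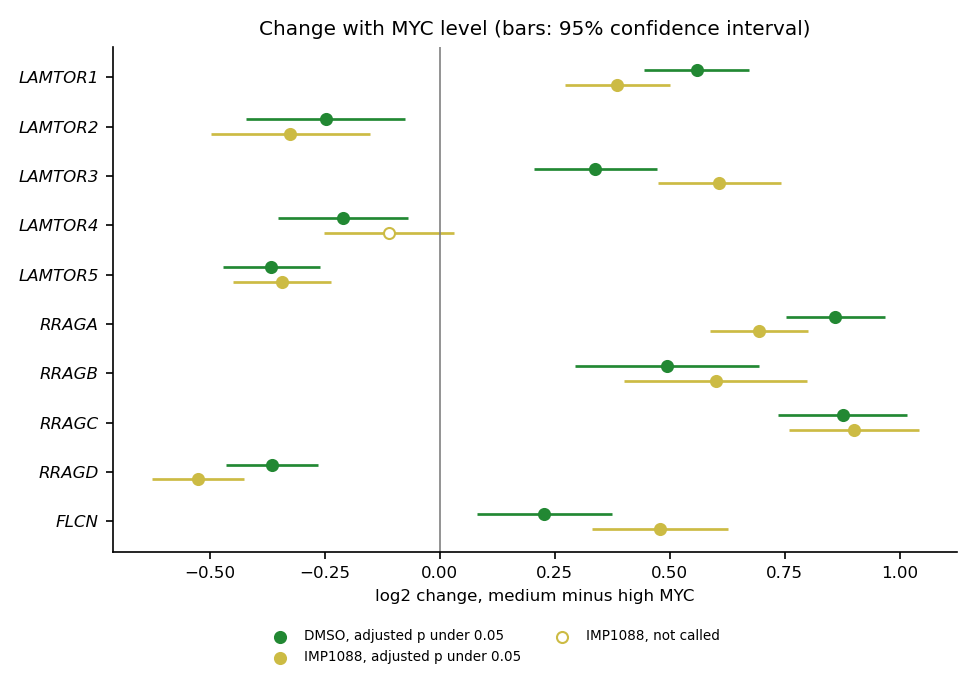
Log2 difference of medium minus high MYC (horizontal axis) with its 95% interval for each of the 10 genes, in control and in inhibitor libraries. RRAGC stands highest at 0.88 in controls and 0.90 with inhibitor, while LAMTOR5 (-0.37) and RRAGD (-0.36) are lowest in controls and RRAGD (-0.53) with inhibitor.

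The same MYC comparison was made among the inhibitor libraries, whose samples are separate from the controls. Of the 10 genes, 9 were called, 6 higher and 3 lower, beside 77.5% of all genes tested by limma (39.7% higher, 37.8% lower) and 72.6% with groups that did not overlap. The genes called kept the direction they had in controls. The log2 differences were 0.90 for RRAGC, 0.69 for RRAGA, 0.61 for LAMTOR3, 0.60 for RRAGB, 0.48 for FLCN and 0.39 for LAMTOR1. They were -0.53 for RRAGD, -0.34 for LAMTOR5 and -0.32 for LAMTOR2. LAMTOR4 had -0.11 (limma adjusted p = 0.145) and was not called, and a GC correction chosen after seeing the data gave -0.23 (limma adjusted p = 0.00753).

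The ratio of the paralogs in each Rag pair was tested by an exact permutation test of the log2 ratio over 4 against 4 libraries, 8 tests in all. The smallest p that this design allows is 0.0286, which is 0.0457 after Benjamini-Hochberg adjustment. It is 0.0286 too with 1 library left out, and its adjusted value varies with how many of the tests reach it. The RRAGC to RRAGD ratio of normalized counts was 0.520 ± 0.0465 (SD, n = 4) in high MYC controls, between 0.452 and 0.555 in single libraries. It was 1.23 ± 0.0890 in medium MYC controls, between 1.15 and 1.33, so no libraries overlapped and the log2 ratio differed by 1.24 (exact permutation p = 0.0286, adjusted 0.0457). With inhibitor the ratio was 0.538 ± 0.0149 at high and 1.45 ± 0.0417 at medium MYC, a log2 difference of 1.43 (exact permutation p = 0.0286, adjusted 0.0457). Divided by exon length, the ratio was 0.511 in high and 1.21 in medium MYC controls, so RRAGC went from the lower to the higher of the pair on that scale too. Leaving out 1 library kept the log2 difference between 1.18 and 1.27 in controls and between 1.41 and 1.44 with inhibitor, with an exact permutation p of 0.0286 each time. The adjusted p then reached 0.0571 in controls (without any 1 of the high MYC controls, or medium MYC control replicate 3) and 0.0762 with inhibitor (without any 1 of the medium MYC inhibitor libraries), above the threshold.

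The RRAGA to RRAGB ratio was 4.98 ± 0.596 (SD, n = 4) in high and 6.42 ± 0.875 in medium MYC controls, with a log2 difference of 0.37 (exact permutation p = 0.0286, adjusted 0.0457) and no overlap. Without any 1 of the high MYC controls, or medium MYC control replicate 3, this difference lay between 0.28 and 0.42. The exact permutation p then rose to between 0.0571 and 0.0857, and the adjusted value to between 0.0914 and 0.137. With inhibitor it was 4.46 ± 0.542 at high and 4.74 ± 0.448 at medium MYC, which overlapped (log2 difference 0.09, exact permutation p = 0.457, adjusted 0.522). Divided by exon length, RRAGA was the higher of this pair in all 16 libraries, with a ratio of at least 6.38.

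**Figure D3:**
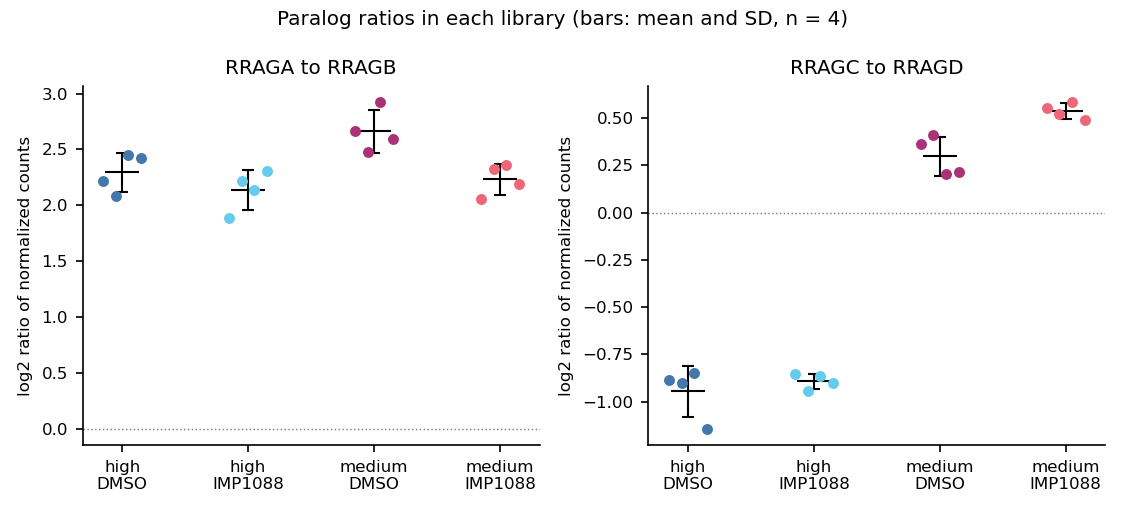
Log2 ratio of normalized counts (vertical axes) of RRAGA to RRAGB and of RRAGC to RRAGD in each library, by group, with the mean and SD. The RRAGC to RRAGD ratio is at most 0.555 (log2 -0.85) in the 8 high MYC libraries and at least 1.15 (log2 0.21) in the 8 medium MYC libraries.

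The second comparison asked how inhibition of myristoylation for 24 h went with these mRNAs at medium MYC. LAMTOR1, RRAGA and RRAGD fell and LAMTOR3 rose. The other 6 genes, among them RRAGC and both LAMTOR4 and LAMTOR5, were not called. These 4 of 10 calls stand beside 26.3% of all genes tested by limma (11.7% higher, 14.6% lower), and beside 27.9% with groups that did not overlap. The members' median log2 difference was -0.04, and that over all genes tested was -0.01. Other levels moved with the inhibitor in these libraries. MYC rose from 959 ± 48.7 to 1382 ± 51.2 (SD, n = 4), summed monocyte markers went from 51.7 to 60.5 up to 78.6 to 83.4, T and NK markers from 86.6 to 116 down to 60.6 to 74.5, and B cell markers from 63755 to 67741.5 down to 57437 to 59104. Summed stromal and epithelial markers went from 177 to 190 up to 211 to 238. The part of all these levels in these results was not tested.

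LAMTOR1, the one subunit with the glycine codon, had 446, 429, 480 and 470.2 normalized counts in controls and 366, 353, 379 and 366 with inhibitor. All inhibitor libraries lay below all controls. The log2 difference was -0.32 (SE 0.05, limma adjusted p = 0.000136), with a 95% interval of -0.43 to -0.20, a change in the level of -19.7%. LAMTOR3 had 317, 350.2, 297.5 and 313.5 in controls and 455.5, 395, 403 and 414 with inhibitor, higher in all 4 libraries than in any control. Its log2 difference was 0.38 (SE 0.06, limma adjusted p = 9.92e-05), with a 95% interval of 0.25 to 0.52. No exon overlap with another gene was found for LAMTOR1 or LAMTOR3, and the pseudogenes LAMTOR3P1 and LAMTOR3P2 were listed at 0 in all libraries.

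LAMTOR2 had 175, 161, 156 and 162 normalized counts in controls and 164, 164, 135 and 171 with inhibitor, and its groups overlapped. LAMTOR4 had 209.7, 217, 191 and 199 in controls and 199, 189, 212 and 187.5 with inhibitor, and its groups overlapped too. LAMTOR5 had 378, 391, 392 and 382 in controls and 431, 375.5, 382 and 411 with inhibitor, again with overlap. Their log2 differences of -0.05, -0.05 and 0.05 had 95% intervals of -0.22 to 0.12, -0.19 to 0.09 and -0.05 to 0.16.

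Among the Rag GTPases, RRAGA had 805, 779, 908 and 761.5 normalized counts in controls and 680.4, 720.2, 705 and 689.7 with inhibitor. Every inhibitor library was below every control, and the log2 difference was -0.22 (SE 0.05, limma adjusted p = 0.00297). RRAGB had 126, 139.5, 119 and 126 in controls and 163, 143, 137 and 150.2 with inhibitor, overlapping at 137 against 139.5, with a log2 difference of 0.21 (SE 0.10, limma adjusted p = 0.107). The ratio of RRAGA to RRAGB was 6.42 in controls and 4.74 with inhibitor, a log2 difference of -0.43 (exact permutation p = 0.0286, adjusted 0.0457), and its libraries did not overlap. RRAGC had 499, 484, 422 and 447 in controls and 453, 455, 445 and 453 with inhibitor, which lay inside the control range, with a log2 difference of -0.03 and a 95% interval of -0.17 to 0.11. RRAGD had 388, 364, 366 and 386 in controls and 309, 317, 297 and 323 with inhibitor, all lower than any control, with a log2 difference of -0.27 (SE 0.05, limma adjusted p = 0.000177). The ratio of RRAGC to RRAGD was 1.23 in controls and 1.45 with inhibitor, a log2 difference of 0.24 (exact permutation p = 0.0286, adjusted 0.0457). Without medium MYC control replicate 3 or any 1 of the inhibitor libraries, neither ratio passed. The exact permutation p was then up to 0.0571 for each ratio, and the adjusted value up to 0.0914.

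FLCN had 300.4, 305, 326 and 281.5 normalized counts in medium MYC controls and 290.1, 349.7, 367 and 329 with inhibitor. Inhibitor replicate 1, at 290.1, lay within the control range and the other 3 lay above it. The log2 difference was 0.13 (SE 0.07, limma adjusted p = 0.178). Without that library it was 0.20 (limma adjusted p = 0.0372), the 1 library whose removal added a call here.

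**Figure D4:**
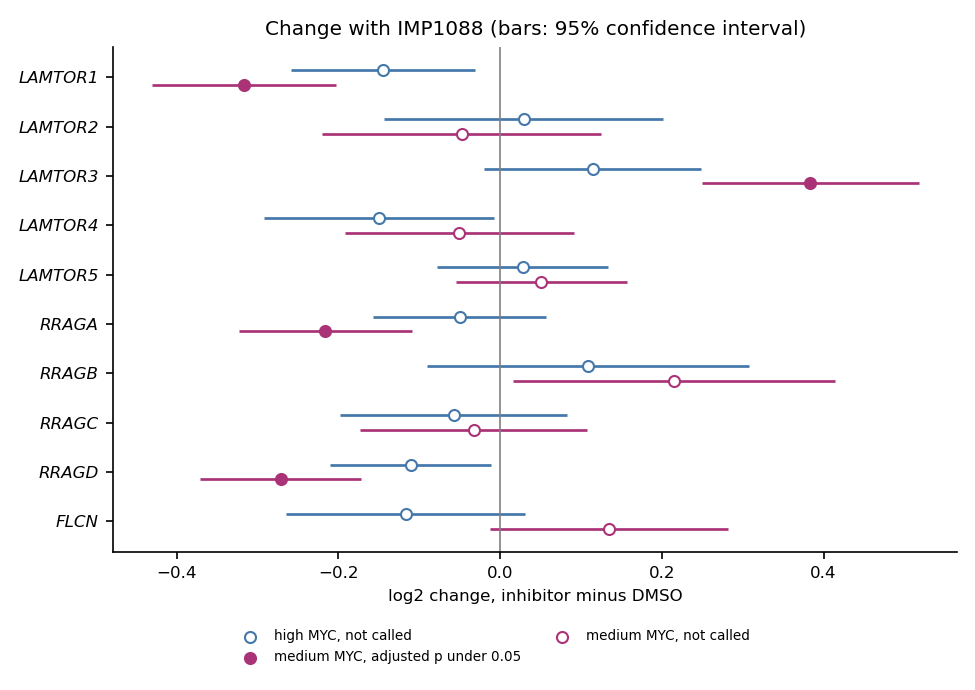
Log2 difference of inhibitor minus control (horizontal axis) with its 95% interval for each of the 10 genes, at high and at medium MYC. At medium MYC LAMTOR1 (-0.32), RRAGD (-0.27), RRAGA (-0.22) and LAMTOR3 (0.38) passed the test, and at high MYC none did.

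At high MYC none of the 10 genes passed the test with inhibitor. The most negative log2 differences, none of them called, were those of LAMTOR4, LAMTOR1, FLCN and RRAGD. Of all genes tested, 26.8% were called by limma (10.5% higher, 16.3% lower) and 26.7% had groups that did not overlap. At an unadjusted p under 0.05 limma gave 3 members, LAMTOR1, LAMTOR4 and RRAGD, and edgeR and DESeq2 on the recovered reads called 0 after adjustment. The members' median log2 difference was -0.05, beside -0.02 over all genes tested. In the same libraries MYC went from 31649 ± 2130 to 47542 ± 505 (SD, n = 4), summed B cell markers from 41854 to 44447 down to 35233 to 36454, and T and NK markers from 65.1 to 74.9 down to 44.1 to 56.6, and their part was not tested.

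LAMTOR1 had 317, 305.5, 303.5 and 311 normalized counts in high MYC controls and 264.5, 307, 269.7 and 279 with inhibitor. Inhibitor replicate 2, at 307, lay within the control range, and the other 3 lay below it. The log2 difference was -0.14 (SE 0.05, limma adjusted p = 0.0552), with a 95% interval of -0.26 to -0.03. Without that library it was -0.19 (limma adjusted p = 0.0143). With a GC correction chosen after seeing the data, and all libraries kept, it was -0.09 (limma adjusted p = 0.206). RRAGD had 493, 464, 493 and 487 in controls and 434.5, 443, 476.5 and 441 with inhibitor, with a log2 difference of -0.11 (SE 0.05, limma adjusted p = 0.0955). Inhibitor replicate 3, at 476.5, was the only inhibitor library above the lowest control, and without it the difference was -0.14 (limma adjusted p = 0.0498).

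LAMTOR4 had 233, 240.3, 235 and 235 normalized counts in high MYC controls and 200.02, 198.5, 231 and 221 with inhibitor, with no overlap, a log2 difference of -0.15 (SE 0.07, limma adjusted p = 0.113). FLCN had 258, 257, 262 and 257 in controls and 242, 261, 232 and 220.4 with inhibitor, a log2 difference of -0.12 (limma adjusted p = 0.244). LAMTOR3 had 244, 276, 255 and 235 in controls and 262, 273, 284.5 and 272 with inhibitor, a log2 difference of 0.11 (limma adjusted p = 0.206). The groups of FLCN and of LAMTOR3 overlapped. The remaining 5 genes, LAMTOR2, LAMTOR5, RRAGA, RRAGB and RRAGC, had log2 differences of 0.03, 0.03, -0.05, 0.11 and -0.06. The widest of their 95% intervals, that of RRAGB, ran from -0.09 to 0.31, so a change within it is not excluded. The ratios of RRAGA to RRAGB (log2 difference -0.16, exact permutation p = 0.286, adjusted 0.381) and RRAGC to RRAGD (0.05, exact permutation p = 0.686, adjusted 0.686) overlapped between treatments.

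Whether the response to inhibitor differed with the MYC level was tested as an interaction. None of the 10 genes passed it by limma, edgeR or DESeq2, beside 8.63% of all genes tested by limma (3.31% higher, 5.33% lower), and 5 had an unadjusted p under 0.05. The difference of the 2 log2 changes, high minus medium MYC, was -0.27 for LAMTOR3 (limma adjusted p = 0.0730), with a 95% interval of -0.46 to -0.08. It was 0.17 for LAMTOR1 (limma adjusted p = 0.196), 0.17 for RRAGA (0.181), 0.16 for RRAGD (0.164) and -0.25 for FLCN (0.138). Hence the calls at medium MYC and their lack at high MYC do not show that these genes responded differently. Without high MYC control replicate 4 or medium MYC control replicate 2, LAMTOR3 had -0.30 (limma adjusted p = 0.0488) or -0.31 (0.0374), and without medium MYC inhibitor replicate 1, FLCN had -0.32 (0.0375).

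The promoters show where the CACGTG motif lies. RefSeq promoter entries (GRCh38.p14, 250 bases before to 50 after each gene start) were matched for 8 of the 10 genes, without RRAGA and RRAGD. CACGTG, which reads the same on both strands, was found in 4 of the 8: LAMTOR1, LAMTOR4, RRAGB and RRAGC. It is in 2548 of 35116 promoters of this length (7.26%). The stretches below, up to 200 bases upstream of the RefSeq start, are shown for these 4 genes with CACGTG in capitals, each on the gene's strand. They cover chr11:72103388-72103497 (minus strand), chr7:100148718-100148917 (plus), chrX:55717549-55717748 (plus) and chr1:38859824-38859972 (minus). Of these, the LAMTOR1 (110 bases) and RRAGC (149 bases) stretches stop at the GENCODE gene start, upstream of the RefSeq start. The distances given below are to the RefSeq start, so they cannot be counted from the ends of these 2 stretches.
LAMTOR1: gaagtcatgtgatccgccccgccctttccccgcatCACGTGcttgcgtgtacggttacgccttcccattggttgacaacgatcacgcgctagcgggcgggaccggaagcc
LAMTOR4: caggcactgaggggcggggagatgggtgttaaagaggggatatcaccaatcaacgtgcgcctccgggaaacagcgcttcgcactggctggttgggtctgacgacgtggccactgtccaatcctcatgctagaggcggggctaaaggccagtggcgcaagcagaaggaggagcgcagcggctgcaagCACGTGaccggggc
RRAGB: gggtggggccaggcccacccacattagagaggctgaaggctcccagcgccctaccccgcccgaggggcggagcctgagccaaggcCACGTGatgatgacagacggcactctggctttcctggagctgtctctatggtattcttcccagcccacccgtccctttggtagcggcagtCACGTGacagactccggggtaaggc
RRAGC: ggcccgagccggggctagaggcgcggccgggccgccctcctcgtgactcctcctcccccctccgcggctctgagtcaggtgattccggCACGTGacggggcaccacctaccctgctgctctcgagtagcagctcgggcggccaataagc
The first CACGTG begins 165 bases before the RefSeq start in LAMTOR1, 14 in LAMTOR4, 115 in RRAGB and 112 in RRAGC. RRAGB holds 3 in its promoter, 2 of them in the stretch printed. LAMTOR1, RRAGB and RRAGC were higher at medium MYC in controls and LAMTOR4 was lower, and of the genes with an entry and no CACGTG, LAMTOR3 and FLCN were higher and LAMTOR2 and LAMTOR5 lower. A match of these letters describes the sequence and is not a measured binding site.

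The wider pathway was described from lists chosen with earlier results of these data known. In controls, medium against high MYC, 79.7% of the 64 list genes tested were called, near the 76.2% of all genes, so the counts below describe the lists and do not set them apart. Of GATOR1, the GTPase-activating brake on RagA and RagB, all 3 genes were lower, NPRL2 at -0.71, NPRL3 at -0.50 and DEPDC5 at -0.12. The DEPDC5 call was lost under 6 of 30 alternatives, and with inhibitor the same comparison called DEPDC5 higher, at 0.19. FNIP2, a partner of FLCN, was 1 of 2 called and rose by 1.60, from a low mean of 10.3 to 32.7 normalized counts. Of the KICSTOR tether 1 of 4 was higher and 2 lower, the latter KICS2 (-1.80) and ITFG2 (-0.38), and of GATOR2 2 of 5 were higher and 2 lower. MIOS, a GATOR2 subunit, rose by 1.07 from a mean of 622 to 1307 normalized counts, and SEH1L fell by 1.23. Of the amino acid sensors 6 of 8 were higher and 1 lower, with CASTOR1 at 1.13, SESN2 at 0.85 and SESN1 at -1.24. Of the 4 tested mTORC1 subunits 2 were higher and 2 lower (AKT1S1 0.45, MLST8 -1.31). RHEB, the activator of mTORC1, fell by 0.68 from 425 to 263, and of the Rheb and TSC genes 2 of 4 were higher, TBC1D7 at 0.52 among them.

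TFEB and TFE3, the factors that FLCN acts on, were both higher at medium MYC. TFE3 rose by 1.08 from a mean of 193 to 409.8 normalized counts and TFEB by 0.90 from 365 to 681, 2 of the 3 tested. MITF, another family member, was listed at 0 in all 16 libraries, which still allows an expected count of up to 3 reads in each. Of the lysosomal CLEAR genes 14 of 23 tested were higher and 3 lower, 73.9% called in all, with a median of 0.29 beside 0.02 over all genes, led by NEU1 at 1.33 and WIPI1 at 1.28. Of the BORC genes 6 of 8 were higher, BORCS6 at 0.87 and SNAPIN at 0.74, and 1 was lower. That 1 was BORCS5, which fell by 0.52 (limma adjusted p = 6.20e-06) from 174 to 121.

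With inhibitor at medium MYC, 13 of the 64 list genes were higher and 2 lower, 23.4% called beside 26.3% of all genes tested. SESN2, a leucine sensor, rose by 0.67 (limma adjusted p = 4.20e-07) from a mean of 448 to 712 normalized counts, and MIOS fell by 0.76 (limma adjusted p = 1.68e-12) from 1307 to 769. Of the sensors 2 of 8 were higher and 1 lower, SESN3 at -0.34, and of GATOR2 SEC13 was higher at 0.33. FNIP1 rose by 0.26, 1 of the 2 FLCN partners, KICS2 by 0.42, TSC1 by 0.13 and MLST8 by 0.22, each the single call of its list. The MLST8 call was lost under 19 of 30 alternatives. No GATOR1, MiT/TFE or BORC gene was called, and BORCS5 had 0.06 (limma adjusted p = 0.635). Of the CLEAR genes 6 of 23 were higher and 0 lower, with a median of 0.09, WIPI1 at 0.59 and the autophagy receptor SQSTM1 at 0.47.

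With inhibitor at high MYC, 3 of the 64 list genes were higher and 10 lower, 20.3% called beside 26.8% of all genes tested, which also had more calls lower than higher. DEPDC5, a GATOR1 gene, fell by 0.30, MIOS by 0.38, SESN3 by 0.23 and MTOR, the kinase itself, by 0.11. TFEB fell by 0.20 (limma adjusted p = 0.0164), a call lost under 6 of 30 alternatives. BLOC1S1 fell by 0.36 and BORCS8 by 0.20, 2 of the 8 BORC genes, and the BORCS8 call was lost under 25 of 30 alternatives. BORCS5 had -0.19 (limma adjusted p = 0.0971). KICS2 (0.30), SAR1B (0.20) and AKT1S1 (0.24) were higher, with the SAR1B call lost under 6 and the KICS2 call under 4 of 30 alternatives. Of the CLEAR genes 0 were higher and 3 of 23 lower, ATP6V0D1 at -0.45 and CTSB at -0.43 among them, with a median of -0.01. No FLCN partner, Rheb or TSC gene was called.

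The response itself differed between MYC levels, high minus medium, for SESN2 (-0.61, limma adjusted p = 0.000409) and MIOS (0.39, limma adjusted p = 3.73e-05). It differed too for DEPDC5 (-0.31), SEC13 (-0.24), MLST8 (-0.42) and MTOR (-0.16), and for 5 of 23 CLEAR genes, all more negative at high MYC, with WIPI1 at -0.82 and SQSTM1 at -0.44. In all, 11 of the 64 list genes were called (17.2%), beside 8.63% of all genes tested. Of these calls, that of MLST8 was lost under 5, that of MTOR under 4 and that of UVRAG, a CLEAR gene named after its values were seen, under 9 of 29 alternatives. Of the 35 pathway genes named, 24 have exons that overlap those of another annotated gene, so their counts are uncertain to differing degrees. The largest overlap with 1 gene covered 46.0% of the exon length of CASTOR1, 29.8% of that of BLOC1S1 and 29.4% of that of BORCS6. It covered 24.3% of that of WIPI1, 20.7% of that of SQSTM1 and 1.86% of that of MIOS.

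**Figure D5:**
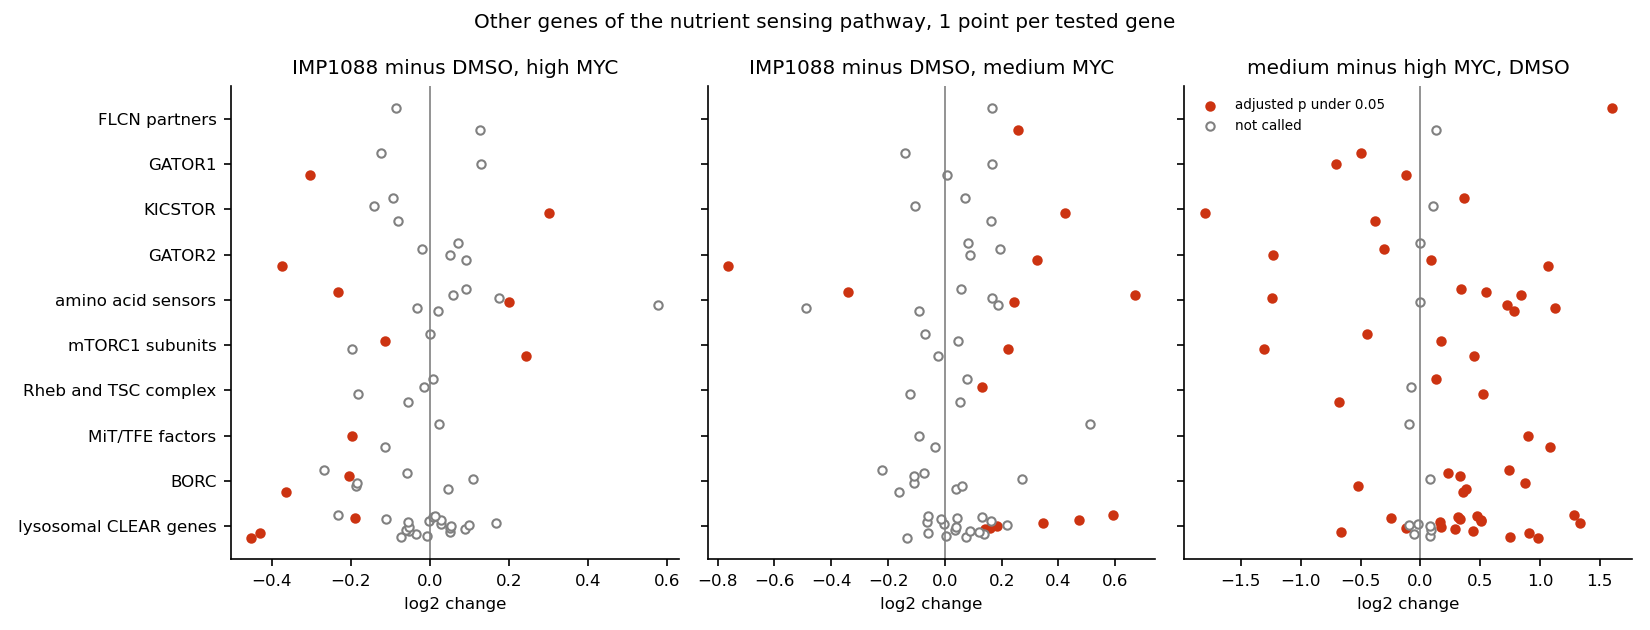
Log2 change (horizontal axes, on a different scale in each panel) of each tested gene of the pathway lists, for inhibitor minus control at high and at medium MYC and for medium minus high MYC in controls, with filled points for genes with a limma adjusted p under 0.05. Of the CLEAR genes, 14 of 23 are filled on the right side in the MYC comparison and 6 of 23 with inhibitor at medium MYC.

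RRAGC and RRAGA had the widest span of group means among the 10, at 0.93 and 0.91 on the log2 scale. Over the 16 libraries and 10903 genes with a mean of at least 50, the genes closest to RRAGC were C3orf38, MGAT5 and TRIP12, with a root mean square difference of 0.09 in centred log2 values for each. Those closest to RRAGA were FLYWCH1 at 0.06, HDGFL2 at 0.07 and VIM at 0.07. They were chosen for likeness, so these values are a description.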

How the data were processed

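RNA of 16 libraries was measured, 4 in each of 4 groups taken from the labels. The deposited table holds the authors' normalized counts (a signal per gene), made from gene reads of each library. The submitters' processing notes name STAR 2.5.2a, RSEM 1.2.31, DESeq2 1.16.1 and GRCh38, with no role or order. The annotation, strand setting and rounding are not given in the sources used here. In the deposited signal, 100% of values in every library were whole multiples of the value of 1 read (tolerance 1e-06), so reads were recovered for count tests. Of 58051 identifiers, 57447 were matched to GENCODE 29 and 28714 were above 0 in any library.

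Genes with a mean of at least 10 (13765) were tested on log2(normalized count + 1) with limma 3.58.1 (R 4.3.3), with a mean trend and 1 fit over all 4 groups, so all share 1 estimate of the spread. Adding 1 understates the change of low genes. Called means a Benjamini-Hochberg adjusted p under 0.05 over all genes tested, and intervals are 95%. Alternatives were edgeR 4.0.16 and DESeq2 1.42.0 on recovered reads, other scalings, pseudocounts (0.1, 10), filters (none, a mean of 100), no mean trend, only the groups compared, a replicate block and leaving out each library. The scripts were tested on simulated data. RefSeq supplied the promoters and GENCODE 29 the coding starts.

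The members and lists were chosen with earlier results of these data known. All 10 members are described in every comparison. From each other list the counts called are given, with up to 2 called genes of largest change named per comparison, and SESN2, BORCS5, TFEB, TFE3 and MITF are named in any case. For the 2 members of widest span, the 3 genes of smallest root mean square difference are named.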

Additional observations from a re-analysis of the deposited data

How the results depend on the processing

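Under the alternatives, 1490 values of the 50 member differences were recomputed. Of these, 1478 kept their side of the threshold, among them 11 uncalled values that crossed zero. Another 2 fell short of it, 10 newly passed it and 0 called values reversed. With inhibitor at high MYC, where 0 members were called, 1 was called with no mean trend (LAMTOR1, adjusted p = 0.0445 by limma) and 1 with a GC correction (RRAGD, -0.13, adjusted p = 0.0365 by limma). Leaving out each library gave 0 to 1 called in that comparison and 0 to 1 for the difference in response. It gave 4 to 5 with inhibitor at medium MYC, 10 in every fit for MYC in controls and 9 in every fit for MYC with inhibitor. The GC correction, added after seeing the data and possible for 99.5% of genes tested, ended the FLCN call for MYC in controls (0.05) and added LAMTOR4 with inhibitor (-0.23). It moved the median of all genes by -0.09 in controls and by -0.11 with inhibitor, and relative to that median FLCN was 0.12 and LAMTOR4 -0.14. The cause was not tested.

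Replicate numbers did not pair the samples: 1 of 24 pairs of libraries with the same number had correlated deviations above 0.1. With a replicate block, 0, 4, 0, 10 and 9 members were called for inhibitor at high MYC, inhibitor at medium MYC, the difference, MYC in controls and MYC with inhibitor, as without it. With the replicate block and the GC correction together, FLCN was 0.05 (limma adjusted p = 0.511) and LAMTOR4 -0.23 (limma adjusted p = 0.0133). Of 138 calls of pathway genes, 28 were lost under any alternative and 0 reversed. The other scalings moved the median of all genes by less than 0.1. Leaving out each library gave log2 differences of the RRAGA to RRAGB ratio between 0.28 and 0.43 for MYC in controls and between -0.49 and -0.34 for inhibitor at medium MYC. For the RRAGC to RRAGD ratio they lay between 1.18 and 1.27 for MYC in controls, 1.41 and 1.44 for MYC with inhibitor and 0.21 and 0.28 for inhibitor at medium MYC. Of these 5 called differences, each missed the threshold in 4 or 5 of 8 such tests. The groups did not overlap in any of those tests. The smallest p allowed, 0.0286, passes after adjustment only if enough of the tests reach it. For the RRAGC to RRAGD ratio between MYC levels, the unadjusted exact permutation p was 0.0286 in every such test. The misses there cannot show whether the difference rests on 1 library. In some misses of the other differences the unadjusted p was itself higher. It reached 0.0857 for RRAGA to RRAGB for MYC in controls, and 0.0571 for both ratios for inhibitor at medium MYC. The sign-flip test within replicate numbers was compared by value only. At 74 to 163 reads, RRAGB has the widest intervals of the 10.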

Other observations

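The genes whose exons lie opposite LAMTOR4 and LAMTOR5 were themselves detected. C7orf43 had a mean of 120 normalized counts in high MYC controls, 132 with inhibitor at high MYC, 179 in medium MYC controls and 176 with inhibitor at medium MYC, while LAMTOR4 stood at 236, 213, 204 and 197. LAMTOR5-AS1 had 91.0, 105, 82.8 and 88.8 in the same order, while LAMTOR5 stood at 497, 507, 386 and 400.1. Their part in the LAMTOR4 and LAMTOR5 results was not tested.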
